A study of Mus musculus with 8 samples.

Results

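The genes described here are 10 members of the Nodal, BMP and follistatin signalling pathways in mouse embryonic stem cells, taken by symbol from a table of 23818 gene symbols. They are the ligands Nodal and Bmp4, the co-receptor Tdgf1, the extracellular antagonists Lefty1, Lefty2 and Fst, the intracellular inhibitor Smad7, and the target genes Id1, Id2 and Id3, and all 10 had a row in the table. The cells were of the J1 line and were either wild type (WT) or carried a knockout of Mettl6 (KO) in the clone called G6. Both genotypes grew in 2i medium with LIF, which holds stem cells in a naive state, and both received cycloheximide, which stalls elongating ribosomes, for 10 min before lysis. Total RNA and ribosome footprints, the fragments of 26 to 32 nt that ribosomes shield from RNases A and T1, were each sequenced from 2 libraries per genotype, which gave 8 libraries in 4 groups. A single clone stands for the knockout, so effects of the genotype and of that clone cannot be told apart, and nothing in the labels beyond the word biological says that replicates came from separate cultures. The suffix new stands in the titles of total RNA libraries from WT and not from KO cells, so any difference in how they were made cannot be told apart from genotype. METTL6 methylates tRNA to m3C, and the question put to these genes is how their RNA and their footprints differ in its absence.

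Nodal is a secreted ligand of the TGF-beta superfamily. Together with a co-receptor of the Cripto family, here Tdgf1, it binds activin receptors, which phosphorylate SMAD2 and SMAD3, and the SMADs then switch on Nodal itself and the Lefty genes, whose products block Nodal outside the cell. BMP4 signals through SMAD1 and SMAD5 to the Id genes, whose products hold back differentiation factors of the basic helix-loop-helix class, and BMP4 acts with LIF to keep mouse stem cells undifferentiated in medium without the inhibitors of 2i. Follistatin, the product of Fst, traps activin and some BMPs, while SMAD7 blocks the receptors from inside the cell and is itself induced by the pathway.

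Values are CPM, in which the reads of each gene are scaled to the same total per library. The value of 1 read was 0.492 to 0.768 CPM in total RNA and 0.338 to 0.545 CPM in footprints, which corresponds to an estimated 1301531 to 2031518 and 1835677 to 2960255 reads per library. Rn45s, the ribosomal RNA precursor, took 38.3% to 46.3% of the footprint reads. Mettl6 stood at 25.6 and 27.1 CPM in WT total RNA and at 2.30 and 0 CPM in KO total RNA (log2 change −3.91, limma-trend adjusted p = 0.000367). In the footprints Mettl6 was at 3.38 and 6.59 CPM in the libraries labelled WT and at 5.33 and 4.36 CPM in those labelled KO, so the groups overlapped and the targeted gene did not check the labels of the footprint libraries. Its translational efficiency was called higher (log2 change 3.93, adjusted p = 0.0225). For footprints, and for translational efficiency, WT and KO therefore stand for the libraries labelled WT and KO, and each direction given there rests on those labels. Stem cell markers were present throughout, with a summed level of 8 genes of 4439 and 4676 CPM (WT) against 3925 and 4029 CPM (KO) in total RNA. Markers of fibroblast feeders summed to between 1.31 and 10.8 CPM over 5 genes, with Col3a1 and Postn at 0 in every library. Changes are given as log2 changes, which are differences of log2(CPM + 1) between KO and WT and understate the change of low genes, or as folds, which are ratios of mean CPM. A call means a Benjamini-Hochberg adjusted p below 0.05 in limma-trend, a linear model whose spread is shared across genes.

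In total RNA, 3 of the members rose in KO cells (Nodal, Fst and Smad7), Lefty2 fell, and the other 5 of the 9 tested were not called. Over all 13222 genes tested, limma-trend called 13.6% in either direction, 6.57% higher and 7.03% lower. An unadjusted p below 0.05 by limma-trend was found for 3688 of 13221 genes, with Lefty1 and Lefty2 counted as 1 gene. In footprints, Nodal, Fst and Id2 rose, Lefty2 fell, and 6 of 10 were not called, where 19.0% of 11624 genes were called, 10.7% higher and 8.28% lower. The median log2 change of the tested members was 0.076 in total RNA and 0.35 in footprints, against −0.037 and −0.053 over all genes tested. Id3 was too low in total RNA to be tested, with a mean below 1 CPM. The KO libraries lay above both WT libraries for 3 members and below both for 4 in total RNA, and above for 5 and below for 1 in footprints. Over all genes tested the groups separated in this way with KO higher for 26.4% in total RNA and 26.9% in footprints, and with KO lower for 29.8% and 30.7%.

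**Figure D1:**
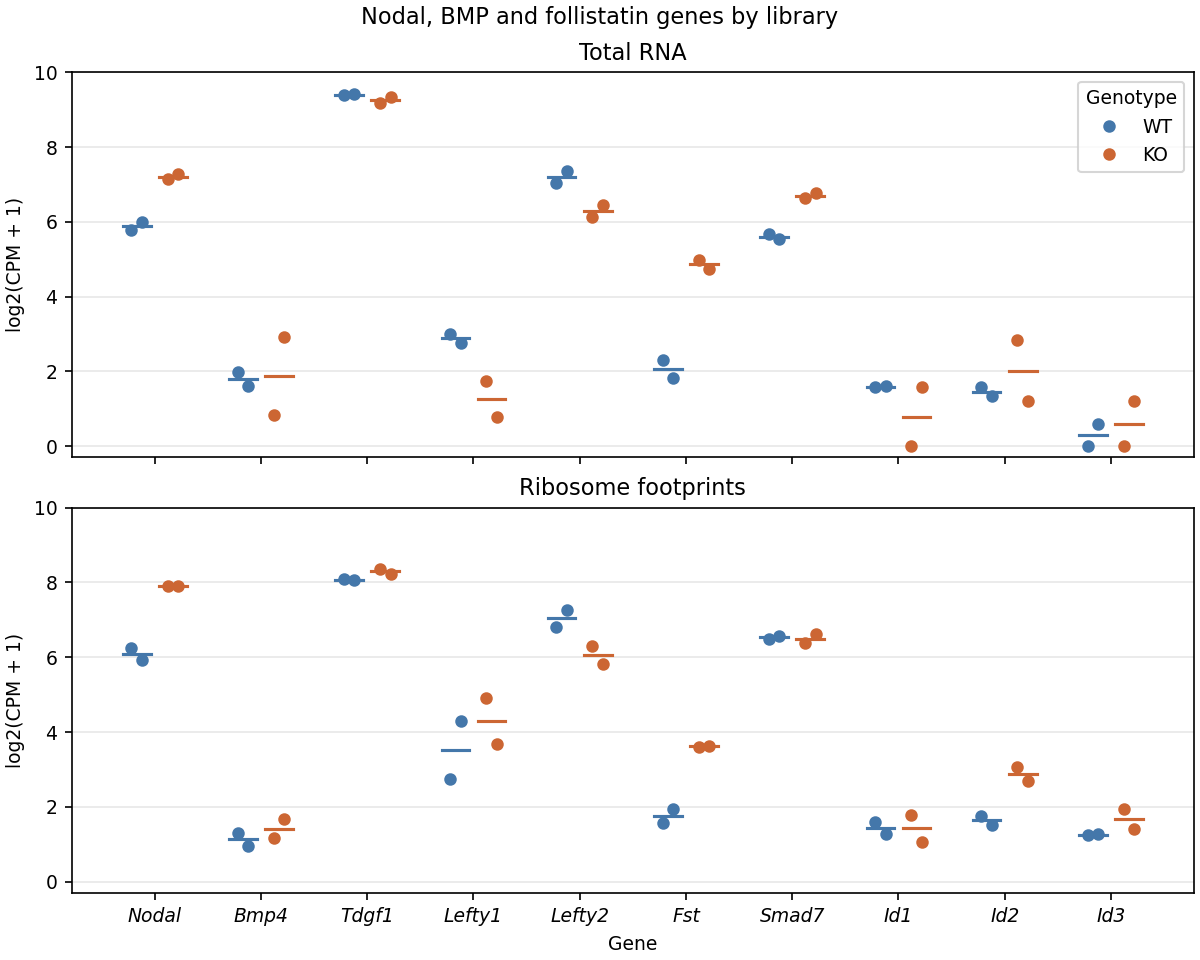
Level of each gene, as log2(CPM + 1), in the 2 WT libraries (blue) and the 2 KO libraries (orange) of total RNA (upper panel) and of ribosome footprints (lower panel). Points are libraries and bars are group means. Nodal and Fst (higher in KO) and Lefty2 (lower in KO) were called in both panels, Smad7 in total RNA alone and Id2 in footprints alone. Bmp4 and the Id genes lie near the bottom of the scale.

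Nodal, the ligand of the activin type receptors, rose in KO cells at both levels. In total RNA it stood at 53.7 and 62.3 CPM (WT) against 141.4 and 152.9 CPM (KO). In footprints the values were 75.7 and 59.4 CPM (WT) against 240.4 and 239.7 CPM (KO). Both KO libraries lay well above both WT libraries in each case, and the groups did not overlap. Nodal RNA rose 2.54-fold (log2 change 1.33, SE 0.18, limma-trend adjusted p = 9.54e-05) and its footprints rose 3.56-fold (log2 change 1.83, SE 0.17, adjusted p = 3.98e-10). The footprint call held when any 1 of the 4 footprint libraries was left out (adjusted p from 0.000729 to 0.00176). With any 1 of the 4 total RNA libraries left out, limma-trend called 0 genes of the whole table, and Nodal kept log2 changes of 1.23 to 1.44 (adjusted p from 0.0755 to 0.110). When the spread was instead taken from all 8 libraries, Nodal RNA was called with any 1 library left out (adjusted p from 4.69e-05 to 0.0188).

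Nodal lies on chromosome 10, from 61417972 to 61425338 on the plus strand of GRCm38, in a region where no other tested gene was called. Of 12 other genes tested within 500 kb, 0 were called in total RNA by limma-trend and 2 had an unadjusted p below 0.05, with log2 changes from −0.90 to 0.61. The 250 bases before the gene's start are shown beside those of its co-receptor gene Tdgf1 (chromosome 9, 110939603 to 110946158, minus strand), because Nodal moved while Tdgf1 did not pass the test. Capitals mark matches, on either strand, to the SMAD box CAGAC, the GC-rich SMAD element GGCGCC, the FOXH1 element AATNNACA, the E-box CACCTG or the TATA box TATAAA. The sequences are from RefSeq (GRCm38.p6), at chr10:61417722-61417971 on the plus strand and chr9:110946159-110946408 on the minus strand.
Nodal: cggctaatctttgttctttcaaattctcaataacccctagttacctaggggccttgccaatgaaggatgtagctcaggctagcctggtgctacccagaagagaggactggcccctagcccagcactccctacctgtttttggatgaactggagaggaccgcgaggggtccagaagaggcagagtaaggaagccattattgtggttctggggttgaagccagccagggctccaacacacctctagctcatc
Tdgf1: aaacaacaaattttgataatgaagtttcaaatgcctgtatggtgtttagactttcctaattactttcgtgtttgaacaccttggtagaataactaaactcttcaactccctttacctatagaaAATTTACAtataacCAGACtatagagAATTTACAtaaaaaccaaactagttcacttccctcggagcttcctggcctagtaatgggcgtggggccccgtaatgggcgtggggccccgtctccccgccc
The Nodal window held 0 matches to any of the 5 motifs, and bases further upstream or inside the gene were not searched. The Tdgf1 window held 1 SMAD box, which starts 113 bases before the gene, between 2 FOXH1 elements that start 127 and 101 bases before it, and none of these overlap. Over 32851 promoters of the same length, 42.2% held a SMAD box, 10.9% a FOXH1 element, 9.59% the GC-rich element, 17.2% the E-box and 12.4% the TATA box. These matches are descriptions of letters and not measured binding.

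Tdgf1, which encodes the Cripto co-receptor that Nodal needs on the cell surface, was the highest member per kilobase in both kinds of library and was not called in either comparison. Total RNA held 668 and 684 CPM (WT) against 583.2 and 641 CPM (KO), and footprints held 270.3 and 265.4 CPM (WT) against 327.3 and 300.7 CPM (KO). The KO libraries thus lay below both WT libraries in total RNA and above both in footprints, by small margins. The log2 change was −0.14 in total RNA (SE 0.11, limma-trend adjusted p = 0.439, 95% interval −0.38 to 0.09) and 0.23 in footprints (SE 0.16, adjusted p = 0.357, interval −0.10 to 0.55). Of the 26-base words in Tdgf1 transcripts, 13.7% also occur in transcripts of other genes, mostly in the pseudogene Tdgf1-ps1, which was not analysed here.

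Lefty2, whose product is secreted and blocks Nodal at its receptors, fell in KO cells in total RNA and in footprints. It stood at 129.8 and 162.2 CPM (WT) against 69.1 and 86.5 CPM (KO) in total RNA, and at 111.9 and 153.2 CPM (WT) against 77.6 and 55.2 CPM (KO) in footprints. The groups did not overlap at either level. The WT mean was 1.88-fold that of KO in total RNA (log2 change −0.90, SE 0.18, limma-trend adjusted p = 0.00316) and 2.00-fold in footprints (log2 change −0.99, SE 0.19, adjusted p = 0.000229). The total RNA call was lost with any 1 of its 4 libraries left out (adjusted p from 0.0839 to 0.278). With the spread taken from all 8 libraries it was lost without WT replicate 1 (0.081), WT replicate 2 (0.174) and KO replicate 1 (0.134) of total RNA and kept without KO replicate 2 (0.0484). The footprint call was lost without WT footprint replicate 2 (0.0852) and without KO footprint replicate 2 (0.1001), where the log2 changes were −0.77 and −0.75.

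Lefty1, its neighbour and near copy, was much lower and was not called at either level. In total RNA it stood at 7.06 and 5.82 CPM (WT) against 2.34 and 0.722 CPM (KO), which is 14.4 and 11.4 reads against 3.1 and 1.1 reads. In footprints it stood at 5.64 and 18.6 CPM (WT) against 29.1 and 11.8 CPM (KO), so that the groups overlapped. The log2 changes were −1.63 (SE 0.66, limma-trend adjusted p = 0.113) and 0.79 (SE 0.36, adjusted p = 0.123). With 1 footprint library left out, the footprint value ran from 0.0051 to 1.56. With the spread taken from all 8 libraries the total RNA change was called (adjusted p = 0.0491).

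Both genes lie on chromosome 1, Lefty2 at 180893108 to 180899103 and Lefty1 at 180935022 to 180938400, on the plus strand of GRCm38. Their coding sequences, each of 1104 bases without the stop codon, are identical at 91.8% of positions. Of the 26-base words in either coding sequence, 41.5% occur in the other, so a footprint from those stretches fits both genes. The longest identical run spans 140 bases. The 90 bases at which the genes differ most (bases 35 to 124 of both coding sequences, counted from the A of the start codon) are shown because reads from there can be assigned to 1 of the genes. Capitals mark the 27 bases that differ.
Lefty1: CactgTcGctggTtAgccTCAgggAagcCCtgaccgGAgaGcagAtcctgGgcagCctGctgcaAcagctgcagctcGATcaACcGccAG
Lefty2: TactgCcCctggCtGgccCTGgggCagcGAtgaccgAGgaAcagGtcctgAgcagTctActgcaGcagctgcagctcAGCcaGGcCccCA
The sequences come from GENCODE vM21 transcripts. The submitters' processing notes name RSEM, which assigns reads that fit several genes by estimation, and the part of this assignment in the Lefty values was not tested.

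The share of the summed Lefty reads that was assigned to Lefty1 is given as a description, with no test. In total RNA it was 5.16% and 3.46% in WT and 3.28% and 0.827% in KO, while in footprints it was 4.8% and 10.8% in WT and 27.3% and 17.7% in KO. The share was above every total RNA value in 3 of the 4 footprint libraries, and highest in the KO footprints. The sum of both genes, an alternative chosen after the data were seen, stood at 136.8 and 168.1 CPM (WT) against 71.5 and 87.3 CPM (KO) in total RNA, and at 117.6 and 171.8 CPM (WT) against 106.7 and 67.0 CPM (KO) in footprints. It fell by 0.93 on the log2 scale in total RNA (limma-trend adjusted p = 0.0019) and by 0.74 in footprints (adjusted p = 0.0063).

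**Figure D2:**
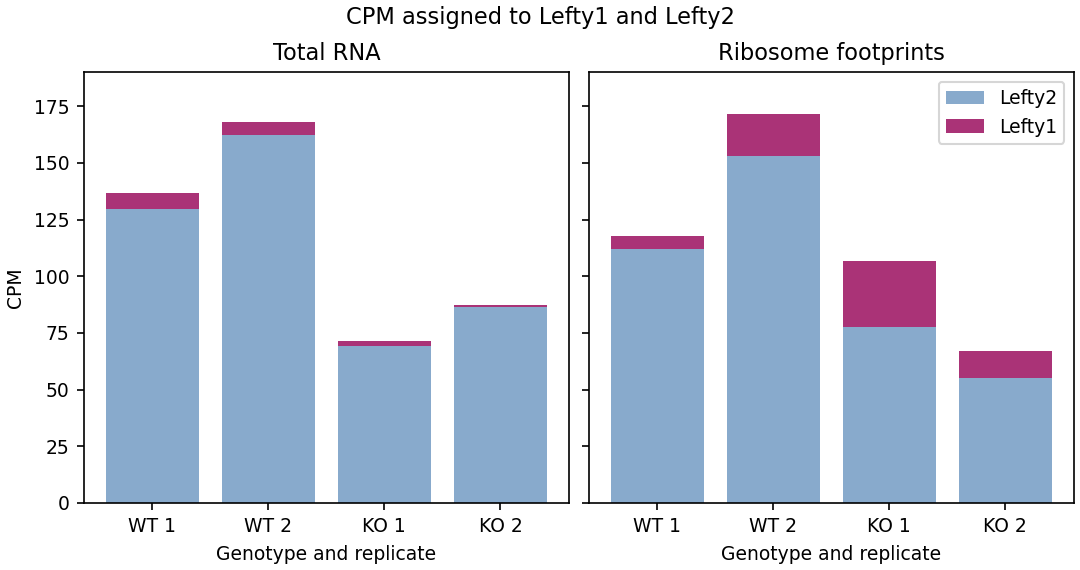
CPM assigned to Lefty2 (blue) and Lefty1 (purple), stacked, in each WT and KO library of total RNA (left) and of ribosome footprints (right). The stacked sum lies at or below 106.7 CPM in the KO libraries and at or above 117.6 CPM in the WT libraries. As a share of the sum, Lefty1 is highest in the KO footprints, while its CPM overlaps between WT and KO footprints.

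Fst, the gene of follistatin, was close to the detection limit in WT cells and had the largest log2 increase of the tested members in total RNA. Total RNA held 3.94 and 2.55 CPM in WT (8 and 5 reads) and 30.7 and 25.6 CPM in KO (40 and 39 reads). Footprints held 1.97 and 2.82 CPM (WT) against 11.1 and 11.4 CPM (KO). The KO libraries lay close to each other and far above both WT libraries. Fst RNA rose 8.68-fold (log2 change 2.79, SE 0.44, limma-trend adjusted p = 0.000447) and its footprints rose 4.70-fold (log2 change 1.86, SE 0.37, adjusted p = 0.000316). The footprint call held with any 1 footprint library left out (adjusted p from 0.0201 to 0.0392). The total RNA call was lost with any 1 of its libraries left out, where the log2 changes ran from 2.56 to 3.03. When all 8 libraries gave the spread, it held with any 1 of the 8 left out. Fst lies on chromosome 13 (114452290 to 114458951, minus strand), and an exon of the antisense gene Gm47040, not analysed here, overlaps it. No source used here says that reads were counted by strand, so reads of the 2 genes cannot be told apart. Of 5 other genes tested within 500 kb of Fst, 0 were called by limma-trend and 0 had an unadjusted p below 0.05, with log2 changes from −0.82 to 0.98.

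Smad7, which blocks activated receptors and brings ubiquitin ligases to them, rose in total RNA and was not called in footprints. In total RNA it stood at 49.7 and 45.5 CPM (WT) against 98.3 and 107.6 CPM (KO), and the groups were far apart. In footprints it stood at 89.5 and 93.3 CPM (WT) against 82.0 and 96.8 CPM (KO), and the KO libraries fell on either side of the WT pair. Smad7 RNA rose 2.16-fold (log2 change 1.10, SE 0.19, limma-trend adjusted p = 0.000984), while the footprint log2 change was −0.036 (SE 0.18, adjusted p = 0.923, 95% interval −0.40 to 0.33). The sign of the footprint value turned to positive with median-of-ratios scaling (0.0082). The total RNA call was lost with any 1 of its 4 libraries left out, where the log2 changes ran from 1.03 to 1.16. With the spread from all 8 libraries, it held with any 1 of the 8 left out. Smad7 lies on chromosome 18 (75367529 to 75395935, plus strand), and 0 of 7 other genes tested within 500 kb were called by limma-trend, with 1 at an unadjusted p below 0.05.

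Bmp4 and its classical targets were barely expressed. Bmp4 stood at 2.95 and 2.04 CPM (WT) against 0.768 and 6.56 CPM (KO) in total RNA, which is 6 and 4 reads against 1 and 10 reads. Its footprints were at 1.46 and 0.941 CPM (WT) against 1.23 and 2.18 CPM (KO). The groups overlapped at both levels, and the KO total RNA replicates lay further apart than the WT ones. Neither change was called (log2 0.076, SE 0.77, limma-trend adjusted p = 0.967 in total RNA, and 0.29, SE 0.51, adjusted p = 0.753 in footprints). The interval of the total RNA change ran from −1.55 to 1.70, so a change of a few fold was not detectable at this depth. Gm15217, which overlaps Bmp4 on the opposite strand, was at 0 in every library.

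Of the Id genes, Id2 alone was called, in footprints. Id2 footprints stood at 2.36 and 1.88 CPM (WT) against 7.38 and 5.45 CPM (KO), or 7 and 4 reads against 18 and 10 reads. Id2 total RNA stood at 1.97 and 1.53 CPM (WT) against 6.15 and 1.31 CPM (KO), with 1 KO library above and 1 below the WT pair. The footprints rose 3.02-fold (log2 change 1.24, SE 0.41, limma-trend adjusted p = 0.0286), and the total RNA change was not called (log2 0.57, SE 0.75, adjusted p = 0.675). The Id2 footprint call was lost with any 1 of the 4 footprint libraries left out (adjusted p from 0.095 to 0.182) and when all 8 libraries gave the spread (0.138).

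Id1, a direct target of SMAD1 and SMAD5, stood at 1.97 and 2.04 CPM (WT) against 0 and 1.97 CPM (KO) in total RNA. Its footprints were at 2.03 and 1.41 CPM (WT) against 2.46 and 1.09 CPM (KO), and no library held more than 6 reads of it. The higher KO total RNA value lay below the lower WT value by less than the worth of 1 read. Id3 stood at 0 and 0.511 CPM (WT) against 0 and 1.31 CPM (KO) in total RNA, and at 1.35 and 1.41 CPM (WT) against 2.87 and 1.63 CPM (KO) in footprints. Neither gene was called where tested, with log2 changes of −0.80 for Id1 RNA (SE 0.84, limma-trend adjusted p = 0.582), −0.0068 for Id1 footprints (SE 0.50, adjusted p = 0.995) and 0.42 for Id3 footprints (SE 0.49, adjusted p = 0.602). The sign of the Id1 footprint value turned with median-of-ratios scaling and with a pseudocount of 5.

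Levels of different genes were set side by side as CPM per kilobase of transcript for total RNA. In WT total RNA, Tdgf1 (346 to 354 CPM per kb) stood first, followed by Lefty2 (52.5 to 65.6), Nodal (25.6 to 29.7), Smad7 (10.6 to 11.6) and Lefty1 (3.59 to 4.36), and none of these ranges touched. Below them the range of Fst (1.38 to 2.13) overlapped those of Id2 (1.6 to 2.06), Id1 (1.7 to 1.76) and Bmp4 (0.99 to 1.43), Bmp4 lay below both Id1 and Id2, and Id3 was lowest at up to 0.4. In KO total RNA the order below Tdgf1 (302 to 332 CPM per kb) was Nodal (67.5 to 73), Lefty2 (27.9 to 35), Smad7 (23 to 25.2) and Fst (13.8 to 16.6), again without contact. Nodal and Lefty2 thus changed places between the genotypes, and Fst moved from the group near the detection limit to the fifth place.

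Translational efficiency, the footprint level of a gene relative to its RNA level, was compared between the genotypes through an interaction term, genotype by kind of library, over all 8 libraries. limma-trend called 0 of the 9 members tested, of which 2, Smad7 and Lefty1, had an unadjusted p below 0.05, where 0.0616% of 11364 genes were called, 0.0440% higher and 0.0176% lower. With Lefty1 and Lefty2 counted as 1 gene, 1013 of 11363 genes had an unadjusted p below 0.05 in this test. The footprint to RNA ratio of Smad7 was 1.92 in WT, ranging from 1.8 to 2.05 over pairings of its libraries, and 0.868 in KO, ranging from 0.762 to 0.984. These ranges were apart, but the difference did not pass the adjustment over all genes (log2 change −1.13, SE 0.26, 95% interval −1.66 to −0.61, unadjusted p = 0.000162, adjusted p = 0.142). It passed once Rn45s was left out of the library totals (log2 change −1.22, limma-trend adjusted p = 0.0441). Over the other alternatives, libraries left out included, the log2 change ran from −1.25 to −1.02 and the adjusted p from 0.0573 to 0.379.

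For Nodal the ratio was 1.16 in WT (0.952 to 1.41 over pairings) and 1.63 in KO (1.57 to 1.70), with a log2 change of 0.49 (SE 0.25, limma-trend adjusted p = 0.578). Tdgf1 had the lowest WT ratio of these genes, 0.396 against 0.513 in KO (log2 change 0.37, SE 0.21, adjusted p = 0.621). Lefty2 had ratios of 0.908 and 0.853 (log2 change −0.091, SE 0.29, adjusted p = 0.955), and its sign turned in the sum with Lefty1 (0.19). For Fst the ratio was 0.738 in WT and 0.400 in KO (log2 change −0.93, SE 0.57, adjusted p = 0.663), from fewer than 10 reads in each WT library. The Lefty1 ratio was 1.88 in WT and 13.4 in KO (log2 change 2.41, SE 0.72, unadjusted p = 0.00236, adjusted p = 0.332), a value that rests on 3.1 and 1.1 KO total RNA reads and on the assignment of shared reads described above.

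**Figure D3:**
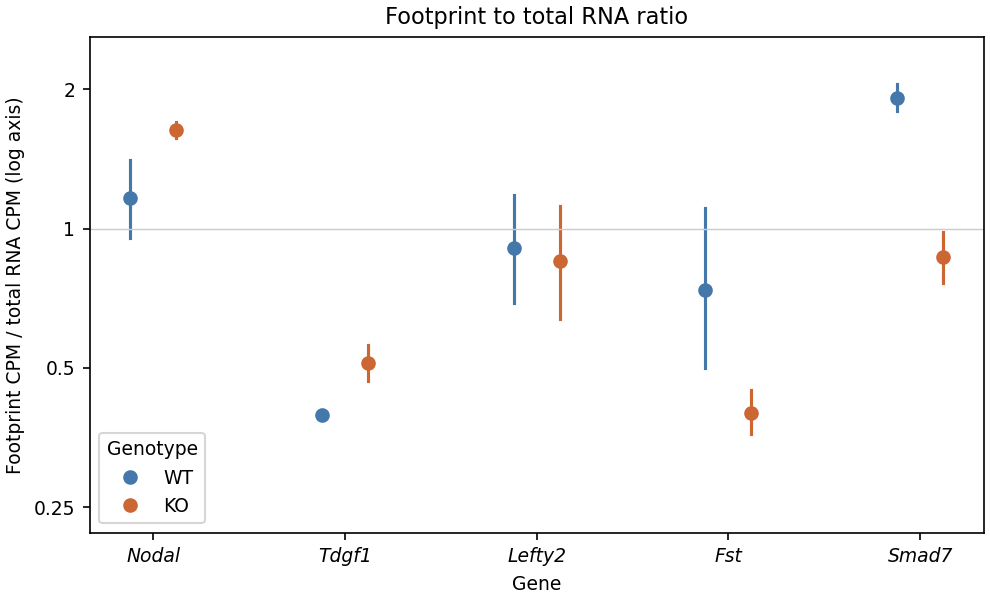
Ratio of footprint CPM to total RNA CPM on a log axis for the 5 members that averaged 5 CPM or more in total RNA and also in footprints, in WT (blue) and KO (orange). Points are ratios of group means and lines span the lowest to the highest ratio over pairings of a genotype's libraries. The Smad7 ratio is 1.92 in WT and 0.868 in KO.

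**Figure D4:**
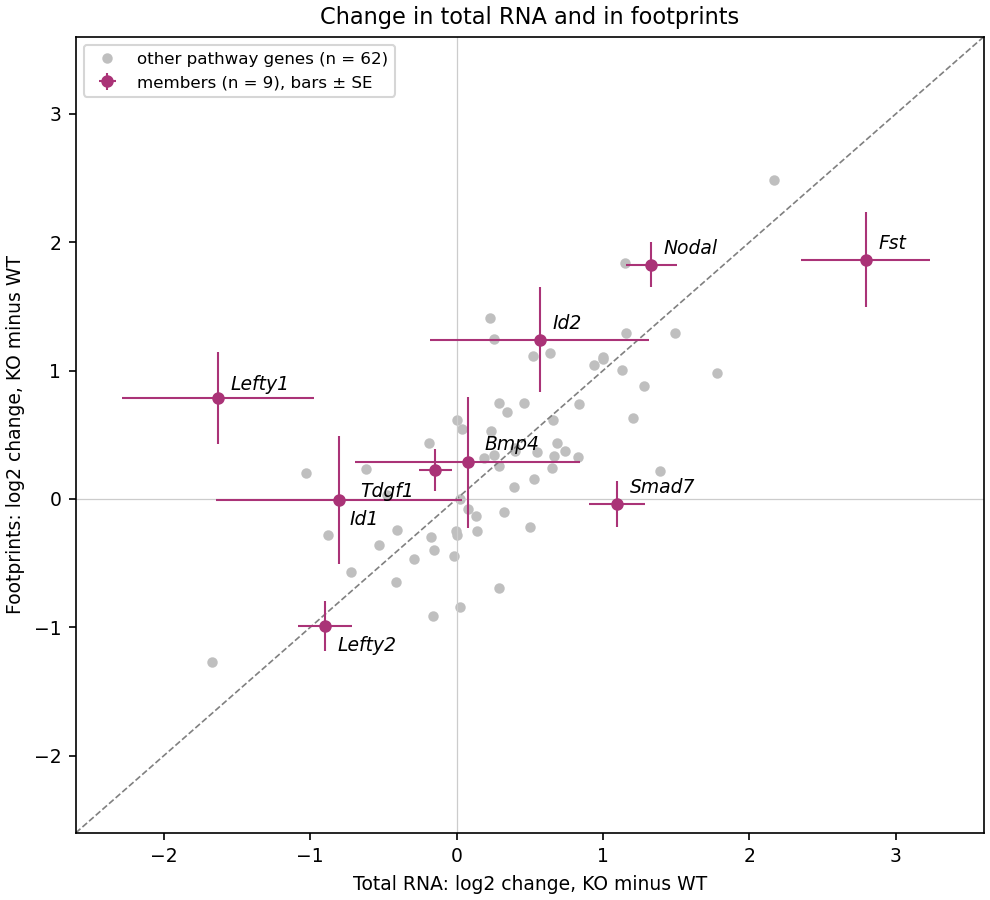
Log2 change between KO and WT in total RNA (horizontal) and in footprints (vertical) for the 9 members tested in both (purple, bars are ± SE) and for 62 other genes of the pathway (grey). The dashed line marks equal change. Nodal and Fst lie at the upper right, Lefty2 at the lower left, and Smad7 on the horizontal axis at 1.10.

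The other genes of the pathway were examined as a list of 92 genes, of which 64 were tested in total RNA and 65 in footprints. In total RNA limma-trend called 8 higher and 0 lower, with 16 at an unadjusted p below 0.05, and in footprints it called 14 higher and 1 lower. Over all genes tested, 6.57% were called higher and 7.03% lower in total RNA, and 10.7% and 8.28% in footprints. With Lefty1 and Lefty2 counted as 1 gene, 3688 of 13221 genes had an unadjusted p below 0.05 in total RNA by limma-trend, and 3612 of 11623 in footprints. The list's median log2 change was 0.31 in total RNA and 0.33 in footprints, beside −0.037 and −0.053 over all genes tested, which are also the background for its sublists. Of the 8 called in total RNA, 5 were receptors or co-receptors, a group in which 5 of 12 tested rose and 0 fell in total RNA (median log2 change 0.83) and 6 of 12 rose in footprints (median 0.75). Tgfbr3, the co-receptor betaglycan, rose most, from 8.37 and 7.66 CPM in WT to 47.6 and 32.8 CPM in KO total RNA (5.02-fold, limma-trend adjusted p = 0.000496) and 6.996-fold in footprints. Eng, the related co-receptor endoglin, rose 2.22-fold in total RNA and 2.01-fold in footprints. Tgfbr1, a type I receptor for TGF-beta, rose 2.03-fold and 2.31-fold, and Rgma, a co-receptor for BMPs, rose 4.001-fold and 2.04-fold. Bmpr2, the BMP type II receptor, rose 1.58-fold in total RNA and was not called in footprints (adjusted p = 0.164). Acvr1b, the type I receptor used by Nodal, and Tgfbr2 were called in footprints alone (1.67-fold and 2.97-fold), with adjusted p of 0.605 and 0.0548 in total RNA.

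Among genes that process or store the ligands, 2 of 7 rose in total RNA and 2 of 6 in footprints. Pcsk6, a convertase that cleaves the Nodal precursor, stood at 101.4 and 72.0 CPM (WT) against 171.3 and 214.6 CPM (KO) in total RNA (2.23-fold, limma-trend adjusted p = 0.000508) and rose 2.48-fold in footprints. Ltbp4, a binding protein for latent TGF-beta, rose 1.97-fold and 2.08-fold. Of the extracellular antagonists Fstl1, a relative of follistatin, rose 2.25-fold in total RNA and 3.92-fold in footprints, and Bambi, a decoy receptor, rose 1.94-fold in footprints (adjusted p = 0.0366) and was not called in total RNA (adjusted p = 0.0585).

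Of 13 other ligands, 0 were called in total RNA by limma-trend, and 0 had an unadjusted p below 0.05. In footprints 3 of 14 were called, namely Gdf3, a relative of Nodal that also uses Tdgf1, with 152.3 and 192.1 CPM (WT) against 253.8 and 270.2 CPM (KO) (1.52-fold, adjusted p = 0.00769), Inhbb, a subunit of activin B (3.25-fold), and Gdf15 (2.27-fold). Of the 7 SMADs on the list, the inhibitory Smad6 included, 0 were called in total RNA by limma-trend. The 1 with an unadjusted p below 0.05 there was Smad6. In footprints Smad4, the SMAD shared by both branches, was called lower (log2 change −0.70, limma-trend adjusted p = 0.0273). Its footprints stood at 35.3 and 34.0 CPM (WT) against 22.5 and 19.6 CPM (KO). Smad4 total RNA did not fall (log2 change 0.29, limma-trend adjusted p = 0.426). Its translational efficiency was not called (log2 change −0.99, adjusted p = 0.342). The 10 nuclear cofactors and ubiquitin ligases, such as Foxh1, Skil and Smurf2, had 0 calls in both comparisons by limma-trend, with 2 and 4 at an unadjusted p below 0.05. The E proteins Tcf3, Tcf4 and Tcf12, which ID proteins bind, had 0 calls by limma-trend and 0 at an unadjusted p below 0.05 in both comparisons.

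**Figure D5:**
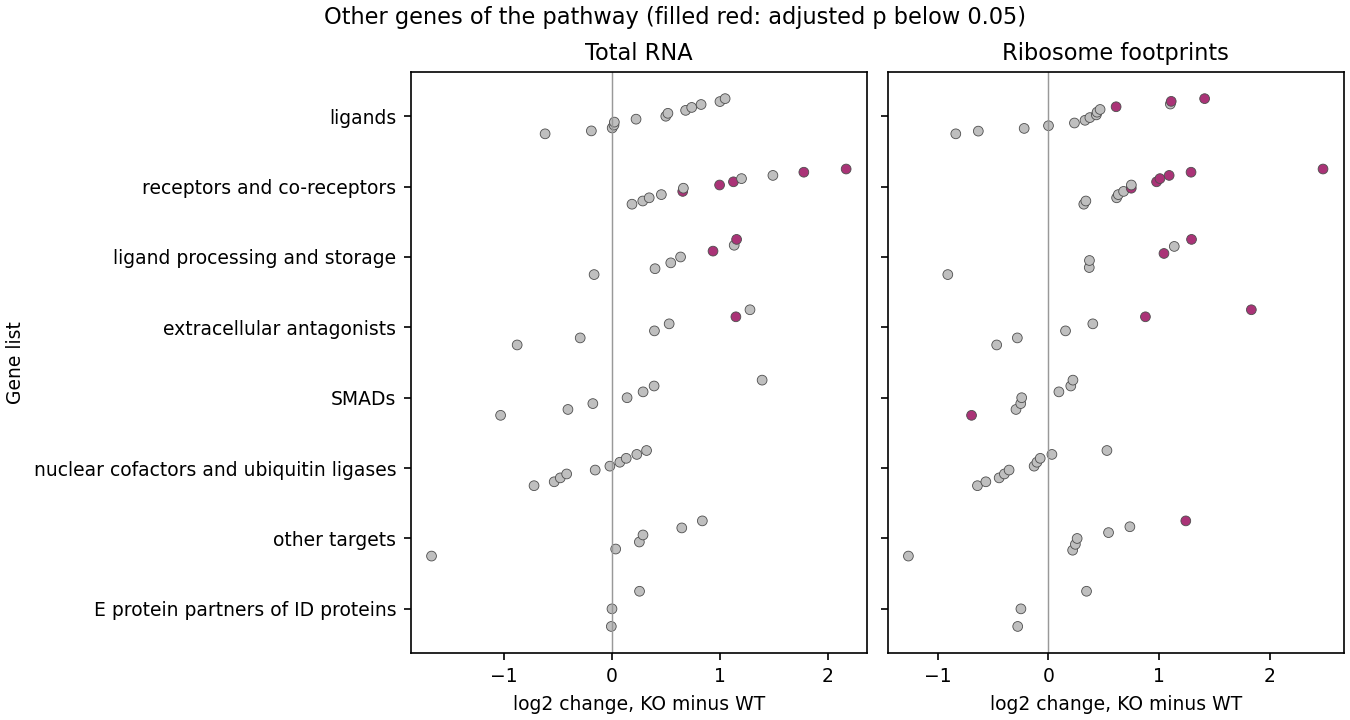
Log2 change between KO and WT in total RNA (left) and in footprints (right) for the other genes of the pathway, one point per tested gene, sorted by value within each list. Red points have a limma-trend adjusted p below 0.05. In total RNA the 8 red points all lie to the right of 0, and 5 of them are receptors or co-receptors.

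Markers of extraembryonic endoderm and mesendoderm were at low levels and those of primed epiblast were higher. Some markers of these types differed between the genotypes. Extraembryonic endoderm markers summed to between 5.62 and 12.3 CPM over 8 genes in WT and to between 19.7 and 23.1 CPM in KO total RNA. In footprints the same sum was 12.97 to 13.8 CPM in WT and 15.2 to 15.4 CPM in KO. In total RNA the KO libraries lay above both WT libraries for Dab2 and Pdgfra and below both for Sox17, which was between 0 and 1.02 CPM. Of the other defining factors, Gata6 was between 0 and 3.84 CPM and Foxa2 at 0 in total RNA. Gata4 stood at 2.46 and 3.07 CPM (WT) against 1.54 and 3.94 CPM (KO) in total RNA, and its footprints at 9.80 and 7.99 CPM in WT were above those in KO, at 3.28 and 4.54 CPM. Primed epiblast markers summed to between 113.7 and 123.1 CPM over 5 genes in WT and to between 159.8 and 195.5 CPM in KO total RNA. Of these 5 genes, 1 separated the genotypes in total RNA, the DNA methyltransferase gene Dnmt3b, with 54.2 and 65.4 CPM (WT) against 114.5 and 129.3 CPM (KO). Otx2 was at 42.8 and 38.3 CPM (WT) against 31.5 and 40.02 CPM (KO), Fgf5 was at 0 in every library, and Pou3f1 footprints were lower in KO, at 0.841 and 0.496 CPM against 3.01 and 1.88 CPM. Mesendoderm markers, which Nodal induces in the embryo, summed to between 5.93 and 10.1 CPM over 4 genes in total RNA, with T at 0 and Gsc below both WT libraries in KO. Of the 8 stem cell markers, 2 lay above both WT libraries in KO total RNA (Sox2 and Tfcp2l1), 3 lay below (Nanog, Zfp42 and Klf2), and Pou5f1, Esrrb and Klf4 overlapped. The background for these marker counts is all 13222 genes tested in total RNA. Of those, KO lay above both WT libraries for 26.4% and below both for 29.8%. Nanog stood at 1309 and 1211 CPM (WT) against 739.8 and 736.3 CPM (KO), and Tfcp2l1 at 1142 and 1096 CPM (WT) against 1439 and 1332 CPM (KO). The part of these cell states in the changes of Nodal, Fst, Lefty2 and Smad7 was not tested, and fewer cells of a type cannot be told apart from less RNA per cell.

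The genes whose pattern over the 8 libraries was most like that of a member were found by the distance between log2(CPM + 1) values centred within each kind of library, among 8436 genes that averaged 5 CPM or more in total RNA and also in footprints. For Nodal they were Slc5a6 (distance 0.256), a vitamin transporter, and Gprc5b (0.28), an orphan receptor. For Fst they were Plxdc2 (0.379) and Hspg2 (0.751), the matrix proteoglycan perlecan. Lefty2 was most like Rhot1 (0.0927), a GTPase of mitochondria, and Sumo2 (0.284). Smad7 was most like Sema4d (0.202), a semaphorin, which went from 23.1 and 21.96 CPM to 46.9 and 52.5 CPM in total RNA and stood at 45.9, 43.2, 43.1 and 43.0 CPM in the footprint libraries, and Gigyf1 (0.351). Tdgf1 was most like Cd2ap (0.0865) and Tfeb (0.132).

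The members share no chromosome beyond the Lefty pair. Serine codons, which the tRNAs modified by METTL6 are known to read, made up 7.06% of the coding sequence in Nodal, 7.98% in Smad7, 8.72% in Fst and 10.3% in Id2, against a median of 7.73% over 12344 tested genes with a coding sequence. The members' shares ran from the 37.5th to the 84.4th percentile of those genes.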

How the data were processed

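Total RNA and ribosome footprints were measured in 2 WT and 2 KO libraries each. The authors deposited CPM values per gene symbol. Per the submitters' processing notes, the tools were CASAVA 1.8.2, Bowtie2 and RSEM with the mm10 build; for Bowtie2 and RSEM no version, and for the counting no annotation or strand setting, is given in the sources used here. The value of 1 read was read from the steps of low CPM values: within a tolerance of 0.01 the share of whole reads was 89.2% to 90.5% for total RNA and 65.3% to 72.8% for footprints, so counts were not recovered and read numbers are estimates. Reads without molecular identifiers are not independent molecules.

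Tests used limma 3.58.1 (limma-trend, R 4.3.3) on log2(CPM + 1) for genes averaging 1 CPM or more, with Benjamini-Hochberg adjustment over all genes tested and a threshold of 0.05. Total RNA and footprints were each fitted on their own 4 libraries, and translational efficiency was an interaction term, genotype by kind of library, over 8 libraries. The scripts were tested on simulated data. The members and gene lists were chosen with earlier results of these data known. Named genes were the members, every called gene of the pathway list, and the 2 genes nearest in pattern to each member that averaged 5 CPM or more in total RNA and also in footprints. Some called genes are not reported here. Smad6 was chosen after its values were seen. Coordinates and coding sequences are from GENCODE vM21 (GRCm38, the assembly of mm10). Promoters are from RefSeq (GRCm38.p6) and were taken for 5 of the 10 members, with any window on the chromosome of Smad7 left out. Alternatives were other filters, pseudocounts, scalings, libraries in the fit, a replicate block, libraries left out and, added after the data were seen, the sum of Lefty1 and Lefty2.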

Additional observations from a re-analysis of the deposited data

How the results depend on the processing

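Nodal, Fst, Smad7 and Lefty2 in total RNA, and Nodal, Fst and Lefty2 in footprints, kept their direction under every alternative run and their calls under all that kept every library. The members called numbered 4 in total RNA, 4 in footprints and 0 in translational efficiency. With 1 library left out these ran from 0 to 5, from 2 to 4 and at 0, and the genes called from 0 to 1760 (1799 with all libraries), from 574 to 2215 (2205) and from 2 to 46 (7). In footprints fitted alone the genes called ran from 574 to 1064. With the spread from all 8 libraries, leaving out WT replicate 1, WT replicate 2 or KO replicate 1 of total RNA gave 389, 305 and 960 genes there, and leaving out WT 1, WT 2, KO 1 or KO 2 of the footprints gave 1052, 987, 1078 and 710. Without a filter 937 genes were called in total RNA. For translational efficiency the genes called were 3 without a filter, 4 with a mean of at least 5 CPM, 2 with a pseudocount of 0.1, 14 with a pseudocount of 5, 11 with median-of-ratios scaling and 12 with Rn45s left out, which also called 1 member, Smad7. The cause was not tested.

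The sign turned for Bmp4 in total RNA with a pseudocount of 0.1 (−0.089) and with libraries left out (−0.97 to 1.12, −0.11 without WT replicate 2), and for Bmp4 translational efficiency with a pseudocount of 5 (−0.015) and with libraries left out (−0.84 to 1.26). It turned for Id1 footprints with median-of-ratios scaling (0.012), a pseudocount of 5 (0.0061) and libraries left out (−0.37 to 0.36, 0.16 without WT footprint replicate 1), and for Smad7 footprints with median-of-ratios scaling (0.0082) and libraries left out (−0.15 to 0.082). It also turned with libraries left out for Id2 in total RNA (−0.25 to 1.38), Id2 translational efficiency (−0.14 to 1.49) and Lefty2 translational efficiency (−0.33 to 0.15, and 0.19 in the sum with Lefty1).

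Same-numbered libraries did not deviate together (r from −0.0488 to 0.0823), so the numbers do not pair them. A replicate block gave 4, 4 and 0 members and 2056, 1833 and 9 genes called, and changed no member call. Bmp4 and the Id genes, at 18 reads or fewer per library, are limited by depth.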

Other observations

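Smad6, the other inhibitory SMAD, was not called in any comparison and was chosen after its values were seen. It stood at 1.97 and 4.09 CPM (WT) against 9.22 and 9.19 CPM (KO) in total RNA, and at 4.73 and 4.71 CPM (WT) against 4.51 and 7.06 CPM (KO) in footprints. The KO libraries lay above both WT libraries in total RNA and on either side of them in footprints. The log2 change was 1.39 in total RNA (limma-trend adjusted p = 0.112), 0.22 in footprints (adjusted p = 0.740) and −1.17 in translational efficiency (adjusted p = 0.621).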
